A study of Mus musculus with 148 samples.

Results

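Ly6a, Ly6c1, Ly6c2 and Ly6e were followed across the immune cells of lungs, lung metastases and primary tumors in a mouse model of spontaneous breast cancer metastasis. They are 4 of the 52634 gene rows of the plate count tables, chosen by their measured levels (CPM) across the labelled populations and tissues of these same cells, so the order of those levels over populations is given as a description, without a test. The comparisons of tissue status use the same sums, and since the genes were picked with these values known, their p-values are not independent evidence about them. Ly6 genes encode small cysteine-rich proteins held on the outer membrane by a lipid (GPI) anchor, and many of them lie side by side on mouse chromosome 15. Ly6a encodes Sca-1, a marker of hematopoietic stem cells that is also found on activated lymphocytes. Ly6c1 and Ly6c2 are close paralogs that together encode Ly6C, the antigen that separates inflammatory (high) from patrolling (low) monocytes and that is also carried by many CD8 T cells. Ly6e is widely expressed and interferon-inducible.

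All mice were C57/b6 PA-GFP, a strain whose cells carry a photoactivatable GFP. Tumor-bearing mice were females of 8 weeks injected in the mammary gland with EO771-tdTomato cells, a mouse breast cancer line carrying a red fluorophore, and tumors were resected after 3 weeks. Control lungs came from 3 mice without tumors. Pre-MET lungs (3 mice) and primary tumors (4 mice) were taken before resection, and relapse-free lungs (6 mice) came from resected mice without metastases. Mice with metastases gave distal normal lung tissue (14 mice), metastasis tissue (13 mice) and photoactivated cells of the metastasis core (13 mice) and the invasive margin (7 mice). Cells were sorted as CD31-CD45+, or as CD31-GFP+ after photoactivation, so core and margin differ from the other groups in their gate as well as their place. Single cells went into wells of plates with a unique molecular identifier (UMI) on each transcript.

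The tables held 56832 wells, and 23425 immune cells with a population label from the authors were kept. UMIs were summed per mouse, tissue status and label where at least 10 cells were present, which gave 510 sums from 63 samples of 27 mice and 12 sequencing batches, and levels are given as CPM, the UMIs of a gene scaled to a fixed total of UMIs in each sum. The median cell held between 1013 and 1139 UMIs in 7 of the groups and 3148 UMIs in primary tumors. All control plates were in sequencing batch SB102, so that batch and control cannot be told apart, and primary tumor plates were in batches SB128 and SB132. B cell, NK cell, neutrophil and alveolar macrophage markers were highest where the labels place them, with B cell markers (Cd79a, Cd79b, Ms4a1) at 4085 CPM in B and alveolar macrophage markers (Chil3, Ear1, Car4) at 12856 CPM in Mac_Cd9. The label T_CD4_Lef1 was an exception, since its Cd8b1 level of 543 CPM was above its Cd4 level of 179 CPM. In all, 87203 UMIs of Ly6e, 41838 of Ly6c2, 25032 of Ly6a and 1848 of Ly6c1 were counted. In 592 wells without a cell, which held 8490 UMIs together, 12 UMIs of Ly6e, 7 of Ly6c2, 2 of Ly6a and 0 of Ly6c1 were found.

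The genes span 156.9 kb of chromosome 15 (GRCm38). Ly6e lies at chr15:74955051-74959905 on the plus strand. Ly6a (chr15:74994877-74998031), Ly6c1 (chr15:75044018-75048830) and Ly6c2 (chr15:75108158-75111970) follow on the minus strand. The coding sequences of Ly6c1 and Ly6c2 were identical in 384 of 393 bases (97.7%), Ly6a was 81.8% identical to Ly6c1 and 81.6% identical to Ly6c2, and Ly6e was between 50.1% and 53.5% identical to the others. The coding part of the last exon is shown for both Ly6c genes to let the few bases that separate them be seen, with the 3 differing bases in capitals and both sequences read 5′ to 3′ on the minus strand (Ly6c1 chr15:75045405-75045610, Ly6c2 chr15:75108546-75108751).

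Ly6c1: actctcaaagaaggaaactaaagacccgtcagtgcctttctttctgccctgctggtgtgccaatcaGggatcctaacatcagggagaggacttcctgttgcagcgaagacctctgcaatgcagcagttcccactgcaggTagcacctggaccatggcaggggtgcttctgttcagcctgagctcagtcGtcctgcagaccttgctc

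Ly6c2: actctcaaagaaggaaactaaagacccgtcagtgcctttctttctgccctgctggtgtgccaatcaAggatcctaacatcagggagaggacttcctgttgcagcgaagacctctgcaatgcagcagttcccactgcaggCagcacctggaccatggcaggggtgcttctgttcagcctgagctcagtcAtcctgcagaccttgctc

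Counted from 1 at the first base shown, with the Ly6c1 base first, the differences are G67A, T140C and G189A. The longest identical stretch in these 206 bases is 72 bases. Of the 50-base windows in the last 400 bases of each transcript, from which 3′ counting draws its reads, 23.4% of those of Ly6c1 and 25.1% of those of Ly6c2 also occur in the other gene, and none of those of Ly6a or Ly6e occurs in another gene. Reads with several mapping positions were dropped by the authors, so both Ly6c levels miss some reads and their split is uncertain. Whether reads of the more abundant Ly6c2 were assigned to Ly6c1, and to what extent in each population, was not tested. Upstream the paralogs were less alike. The RefSeq promoter windows (250 bases before to 50 after the start, GRCm38.p6) of Ly6c1, chr15:75048788-75049087, and Ly6c2, chr15:75111922-75112221, were 62.3% identical. Searched on both strands, TATAAA and CCAAT each occurred once in the Ly6c1 window and not in that of Ly6c2, against 13.6% and 37.4% of all 32851 promoter windows of that length. The gamma-activated sequence TTCNNNGAA, found in 8.3% of windows, occurred in neither.

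Ly6c2 was highest in monocyte and CD8 T cell labels. Its mean level was 2356 ± 811 CPM (SD, n = 54 sums) in Mon_Fn1, the monocytes that express fibronectin, with a lowest, median and highest sum of 927, 2307 and 4824 CPM. It was 2013 ± 1089.5 CPM (n = 25) in Mon_Thbs1, 849 ± 663 CPM (n = 23) in Mon_MHC-II and 285 ± 237 CPM (n = 32) in Mon_Ace, monocytes with the angiotensin-converting enzyme gene Ace, which is high in patrolling monocytes. Among macrophages Ly6c2 was 898 ± 481 CPM (n = 15) in Mac_Isg20, 332 ± 267 CPM (n = 14) in the Trem2-expressing Mac_Gpnmb (Mregs), 278 ± 278 CPM (n = 9) in Mac_Cd81 and 26.6 ± 31.6 CPM (n = 11) in alveolar Mac_Cd9. Neutrophils ranged from 916 ± 391 CPM (n = 4) in Neut_Camp, with genes of granule proteins made in immature neutrophils, to 54.0 ± 84.5 CPM (n = 5) in Neut_PMN-MDSC. Among T cells Ly6c2 was 1915 ± 1162 CPM (n = 45) in T_CD8_Gzmk and 1401 ± 633 CPM (n = 8) in T_CD8_Gzma, both cytotoxic, 700.4 ± 578 CPM (n = 9) in T_CD8_Dapl1 and 471 ± 164 CPM (n = 7) in the dysfunctional T_CD8_Lag3. It was 482 ± 472 CPM (n = 46) in T_CD4_Lef1, close to T_CD8_Lag3, 155 ± 158 CPM (n = 27) in T_CD4_S100a4 and 46.5 ± 38.9 CPM (n = 7) in T_Treg. NK cells held 783 ± 462 CPM (NK_Xcl1, n = 6) and 425 ± 361 CPM (NK_Ncr1, n = 40). The level in migratory dendritic cells (2.91 ± 5.04 CPM, n = 3) was the lowest of the 26 labels.

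**Figure D1:**
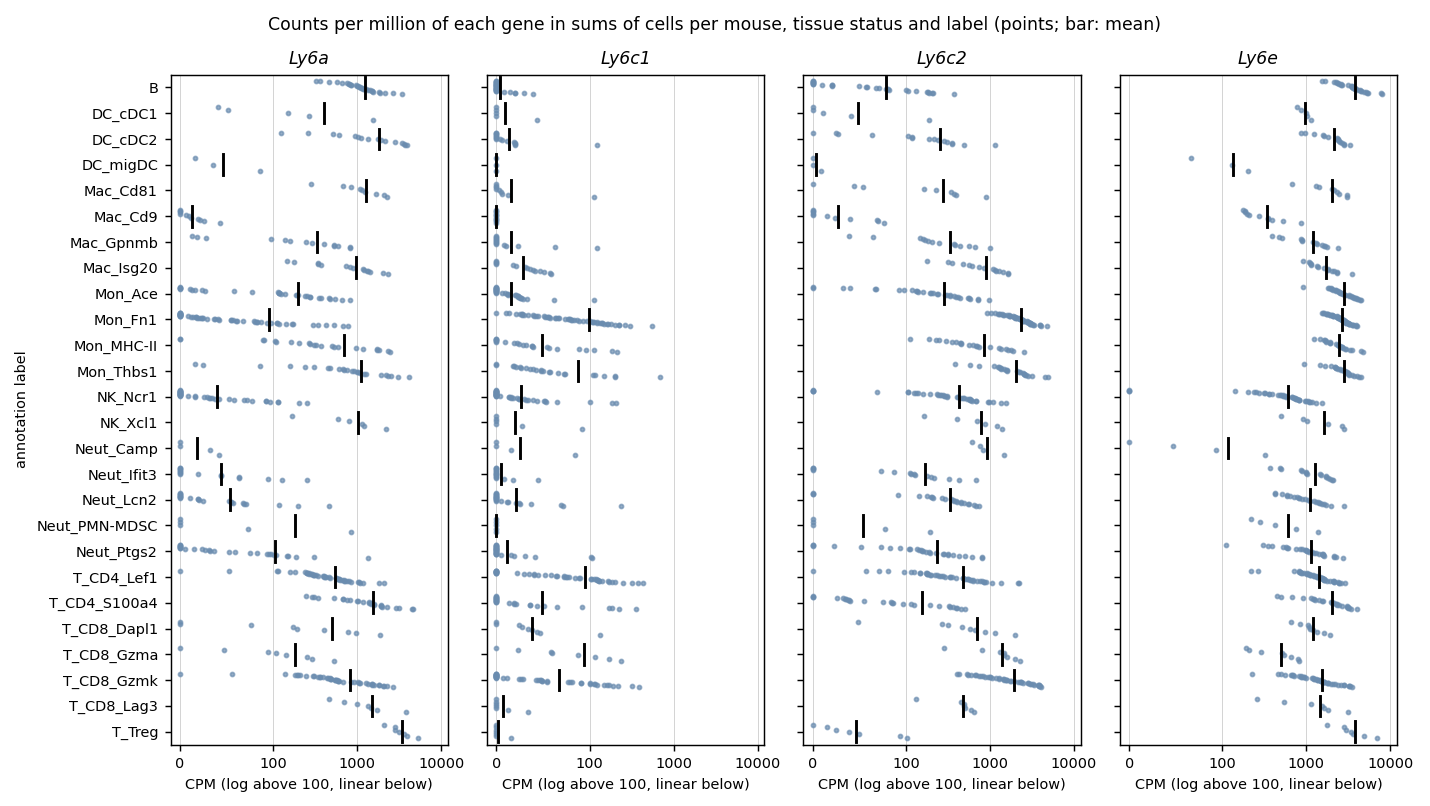
Level of each gene in CPM (x axis, logarithmic above 100 and linear below) in the 26 labels with a sum (y axis). Points are sums of 10 or more cells of 1 mouse and tissue status and bars are means. Ly6c2 is highest in Mon_Fn1 (mean 2356 CPM), Ly6a in T_Treg (mean 3409.7 CPM) and Ly6e in B (mean 3752 CPM), while Ly6c1 reaches no mean above 99.7 CPM.

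Ly6a followed another order, with lymphocytes and tumor-associated myeloid cells at the top. In the mean over all sums regulatory T cells stood first with 3409.7 ± 1039.9 CPM (n = 7), from 2075 through a median of 3163 to 5326 CPM, and their sums came from lesions alone (4 primary tumors, 2 cores and 1 margin). Dendritic cells of type cDC2, which present antigen to CD4 T cells, followed with 1828 ± 1303 CPM (n = 16). Within cores T_Treg (3163 and 3641 CPM) was level with DC_cDC2 (3439 ± 585 CPM, n = 3) and T_CD4_S100a4 (3243 ± 1260 CPM, n = 5). Within primary tumors it was 2934 ± 774 CPM (n = 4), against 1203 ± 665 CPM in DC_cDC2 (n = 4), whose highest sum of 2153 CPM overlapped the lowest of T_Treg, and 1329 ± 296 CPM in T_CD4_S100a4 (n = 3). Within the CD4 labels Ly6a was 539 ± 414 CPM (n = 46) in T_CD4_Lef1, 1552 ± 1154 CPM (n = 27) in the activated T_CD4_S100a4, with T_Treg above both in the mean over all sums. Within the CD8 labels it was 499.5 ± 624 CPM (n = 9) in T_CD8_Dapl1, 823 ± 659.8 CPM (n = 45) in T_CD8_Gzmk and 1500.3 ± 1108 CPM (n = 7) in T_CD8_Lag3, but 183 ± 170.1 CPM (n = 8) in T_CD8_Gzma. These means pool tissues, and the level in T_CD8_Gzmk differed between tissues (values below). B cells held 1225 ± 666 CPM (n = 30). Monocytes ranged from 1121 ± 1036 CPM (n = 25) in Mon_Thbs1 to 95.9 ± 163 CPM (n = 54) in Mon_Fn1, although both had high Ly6c2. Between them lay Mon_MHC-II (701 ± 776 CPM, n = 23) and Mon_Ace (195 ± 209 CPM, n = 32). The Mon_Thbs1 sums were mostly of lesions (8 cores, 10 metastases and 4 primary tumors), while those of Mon_Fn1 came from all tissues. Core values of both labels are given below. Macrophages went from 1262 ± 661 CPM (n = 9) in Mac_Cd81 to 12.6 ± 13.9 CPM (n = 11) in Mac_Cd9, which was the lowest of all. NK_Ncr1, the main natural killer label, had 39.2 ± 57.2 CPM (n = 40), near the bottom.

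Ly6e was the most even of the genes. It was highest in B (3752 ± 1551 CPM, n = 30) and T_Treg (3745 ± 1669 CPM, n = 7), and the monocyte labels lay together at 2831 ± 855 CPM (Mon_Ace, n = 32), 2767 ± 838 CPM (Mon_Thbs1, n = 25), 2625 ± 620.1 CPM (Mon_Fn1, n = 54) and 2472 ± 888 CPM (Mon_MHC-II, n = 23). The lowest levels were 335 ± 205 CPM (n = 11) in Mac_Cd9, 132 ± 67.4 CPM (n = 3) in DC_migDC and 115 ± 142 CPM (n = 4) in Neut_Camp. Thus Neut_Camp ranked 5 of 26 labels for Ly6c2 and last for Ly6e. Ly6c1 stayed low throughout, with 99.7 ± 89.8 CPM (n = 54) in Mon_Fn1, 95.4 ± 96.9 CPM (n = 46) in T_CD4_Lef1 and 93.9 ± 78.0 CPM (n = 8) in T_CD8_Gzma, and 0 UMIs in any sum of DC_migDC, Mac_Cd9 and Neut_PMN-MDSC. When labels were ordered by level, the step from T_Treg to DC_cDC2 in Ly6a was the only one of the steps between neighbours larger than the greater of both SDs, but these labels drew on different tissues and were level within cores. The other 24 steps of Ly6a and all 25 steps of Ly6c1, of Ly6c2 and of Ly6e were within it, so only broad differences of rank can be read.

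The share of cells with a UMI was taken without summing, so that it also covers DC_pDC. After thinning each cell to 500 UMIs, 64.6% of 206 T_Treg cells held a Ly6a UMI (95% exact binomial interval 57.6 to 71.1%, counting error only), against 0.683% of 439 Mac_Cd9 cells, with median depths of 1495.5 and 1645 UMIs before thinning. Ly6c2 was found in 49.2% of 3053 Mon_Fn1 cells (47.4 to 51.0%) and in 2.05% of Mac_Cd9 cells. DC_pDC, plasmacytoid dendritic cells with 73 cells and no sum, had UMIs of Ly6e in 61.6% (49.5 to 72.8%), of Ly6c2 in 49.3% (37.4 to 61.3%) and of Ly6c1 in 12.3% (5.80 to 22.1%) of cells. These were the highest thinned shares of any label for the 3 genes. For Ly6e it was level with B (61.1%) and for Ly6c2 with Mon_Fn1. Without thinning the shares were 81.6% for Ly6a in T_Treg, 69.4% for Ly6c2 in Mon_Fn1 and 74.0% for Ly6c2 in DC_pDC.

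Over the 26 label means, on a log2(CPM + 1) scale and among 9040 genes, the genes most like Ly6a were Mif (Pearson r = 0.803) and Ifi213 (r = 0.797), those most like Ly6e were Rere (r = 0.826) and Arhgap17 (r = 0.812), and those most like Ly6c2 were Ly6c1 (r = 0.872) and Lgals9 (r = 0.732). After Ly6c2, Gbe1 (r = 0.757) was most like Ly6c1. Ly6a and Ly6e were alike at r = 0.736, and Ly6a and Ly6c2 at r = 0.198. Within a label, over the 54 sums of Mon_Fn1, Ifitm7 (r = 0.669) and Gm7434 (r = 0.656) were most like Ly6c2, and Cybb (r = 0.509) and Nfkbia (r = 0.490) most like Ly6e. Over the 46 sums of T_CD4_Lef1, Gimap1 (r = 0.710) and Cox7b (r = 0.702) were most like Ly6a. These values describe labels and sums that share mice, plates and depth, and carry no p.

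The balance between the paralogs Ly6c1 and Ly6c2 was on average different in both CD4 labels from that in the other labels, CD8 T cells included. Ly6c1 gave 21.8 ± 15.9% of the UMIs of the pair in T_CD4_Lef1 (n = 29 sums with at least 10 UMIs of the pair) and 21.3 ± 19.98% in T_CD4_S100a4 (n = 9). The latter rested on 24 UMIs of Ly6c1 and ran from 0 to 60%, and its 2 relapse-free sums, at 0 and 3.70%, lay in the range of the other labels. In the other 19 labels with such sums its mean share was at most 6.75%, with 4.55 ± 4.03% in Mon_Fn1 (n = 54) and 4.39 ± 5.72% in T_CD8_Gzmk (n = 41). In 26 samples with both labels, the share was 23.8% in T_CD4_Lef1 and 4.90% in Mon_Fn1, and it was higher in T_CD4_Lef1 in 23 of them. Of 473 Mon_Fn1 cells with a Ly6c1 UMI, 470 also held a Ly6c2 UMI (99.4%), whereas this was so for 66 of 136 such cells (48.5%) in T_CD4_Lef1. Ly6c2 itself was found in 69.4% of all Mon_Fn1 cells and in 13.65% of all T_CD4_Lef1 cells. In both labels, cells with Ly6c1 thus held Ly6c2 more often than the label as a whole.

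The T_CD4_Lef1 label itself was mixed. Of its 3026 cells, 227 held UMIs of Cd4 and none of Cd8a or Cd8b1, 769 held UMIs of Cd8a or Cd8b1 and none of Cd4, 5 held both and 2025 held neither. Cd4 and Cd8 are the co-receptors that divide helper from cytotoxic T cells. Cells with Cd4 UMIs carried 82 UMIs of Ly6c1 and 30 of Ly6c2, a Ly6c1 share of 73.2% (exact binomial interval 64.0 to 81.1%). Cells with Cd8 UMIs carried 43 UMIs of Ly6c1 and 887 of Ly6c2, a share of 4.62% (3.37 to 6.18%). Here and below, intervals of the Ly6c1 share pool UMIs over mice and cover counting error only, not the spread between mice. In level, Ly6c1 was 208 CPM and Ly6c2 76.1 CPM in the cells with Cd4 UMIs, and 34.6 CPM and 713 CPM in those with Cd8 UMIs, which had a like depth (median 1294 and 1196 UMIs per cell). Thus, pooled over tissues and mice, the paralogs changed places between helper-type and cytotoxic-type cells of the same label. In the cells with Cd4 UMIs, Ly6c1 and Ly6c2 UMIs were 34 and 11 in relapse-free lungs and 28 and 5 in distal normal tissue. They were 9 and 7 in margins, 5 and 2 in primary tumors and 3 and 1 in Pre-MET lungs. In control lungs (2 and 2), metastases (1 and 1) and cores (0 and 1) Ly6c1 was not above Ly6c2.

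In 10 mice with at least 3 UMIs of the pair in both classes of T_CD4_Lef1 cells, the Ly6c1 share was 72.8 ± 21.4% in cells with Cd4 UMIs and 3.79 ± 4.58% in cells with Cd8 UMIs. It was higher with Cd4 in 10 of 10 mice, by 69.0 percentage points on average, from 30.5 to 100.0, and the classes did not overlap (exact sign-flip permutation test over mice, two-sided, p = 0.00195, the smallest that 10 mice allow). The mouse with most UMIs in the Cd4 class had 81.3% of 32 UMIs there and 4.84% of 289 UMIs with Cd8. In the Cd4 class mouse 18 had 36.4% of 11 UMIs and mouse 7 had 50% of 4, so Ly6c1 was not the larger part in them. The split by co-receptor was chosen after the label shares had been seen. The same held less evenly over the 7 T cell labels together, with 44.5 ± 33.6% against 3.62 ± 3.02% in 13 mice, higher in 10 and lower in 3 (p = 0.00195, exact sign-flip permutation test). In T_Treg, cells with Cd4 UMIs held 0 Ly6c1 and 9 Ly6c2 UMIs, and in T_CD4_S100a4 they held 3 and 4 (cells with Cd8 UMIs there held 6 and 24, a Ly6c1 share of 20%, interval 7.71 to 38.6%). In T_CD8_Gzmk, cells with Cd4 UMIs held 9 and 74, a Ly6c1 share of 10.8% (5.08 to 19.6%), and in T_CD8_Lag3 0 and 11. So the Ly6c1 UMIs of Cd4 cells came mainly from T_CD4_Lef1 and their Ly6c2 UMIs mostly from T_CD8_Gzmk. Only in T_CD4_Lef1 did Ly6c1 exceed Ly6c2 in them.

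**Figure D2:**
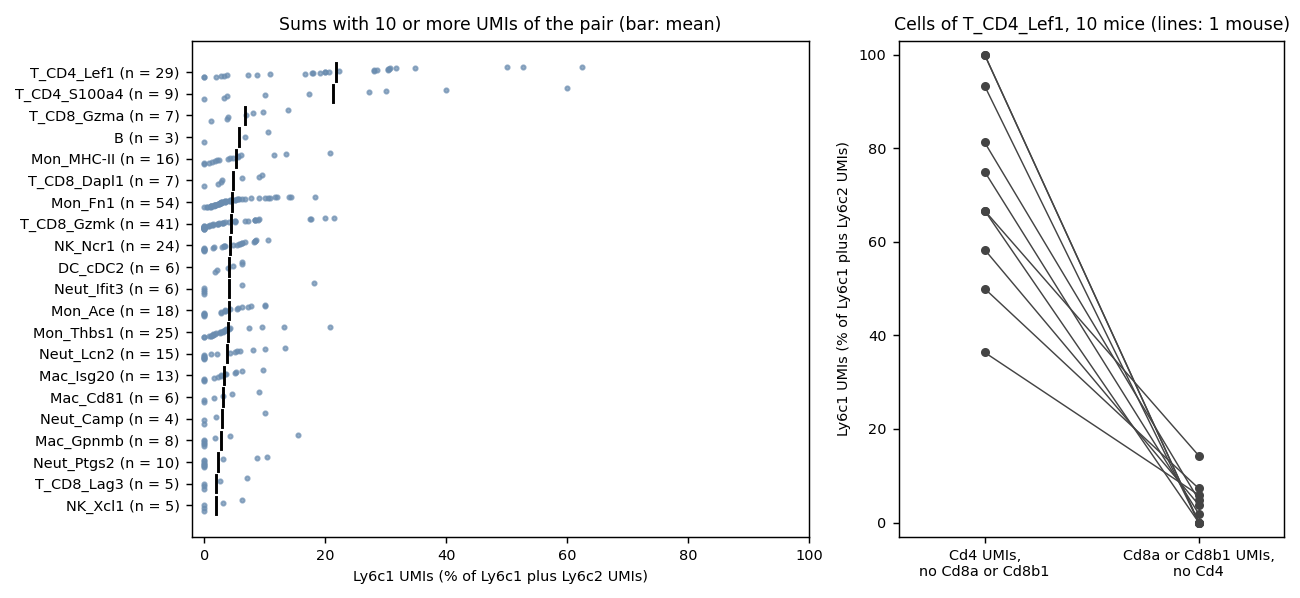
Left, percent of Ly6c1 among Ly6c1 plus Ly6c2 UMIs (x axis) by label (y axis), with 1 point per sum of 10 or more UMIs of the pair and a bar at the mean. T_CD4_Lef1 and T_CD4_S100a4 average 21.8% and 21.3% and the other labels at most 6.75%. Right, the same percent (y axis) in T_CD4_Lef1 cells with UMIs of Cd4 or of Cd8a or Cd8b1 (x axis) in 10 mice, each a line, and every line goes down.

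The mean share in T_CD4_Lef1 also differed between tissues, over the sums with at least 10 UMIs of the pair. It was 31.9 ± 2.50% in control lungs (n = 3, 30.3 to 34.8%), 33.4 ± 17.3% in Pre-MET lungs (n = 3), 44.4 ± 21.5% in distal normal tissue (n = 3) and 25.6 ± 6.22% in relapse-free lungs (n = 5). It was 14.1 ± 13.2% in metastases (n = 5), 20.8 ± 14.1% in margins (n = 2, 10.9 and 30.8%), 11.2 ± 7.49% in primary tumors (n = 4) and 4.24 ± 1.98% in metastasis cores (n = 4, 2.78 to 7.14%), so that control and core did not overlap. Over all cells of the label, sums with fewer UMIs of the pair included, distal normal tissue had 23.5% (exact binomial interval 19.3 to 28.1%), below control (31.4%, 22.7 to 41.2%) and Pre-MET lungs (38.4%, 27.2 to 50.5%), so its place at the top rests on 3 of 10 sums. By the same count core was at 4.58% (2.39 to 7.86%). The pooled intervals leave out the spread between mice, and the 3 distal normal sums ran from 20.7 to 62.5%. All these are shares without a test. Among markers of T cell state in this label, Lef1, a transcription factor gene high in naive T cells, was at 667 CPM in control and 149.5 CPM in core sums. Ccr7, another naive T cell gene, was at 662 and 565 CPM, Cd4 at 132 and 140.1 CPM, Cd8a at 396 and 376 CPM and Cd8b1 at 508 and 551 CPM, and how far the makeup of the label sets the share was not tested. Among cells of the label with Cd8 UMIs, pooled over mice, Ly6c2 was 285 CPM in control, 439 CPM in relapse-free, 1338 CPM in core and 1629 CPM in primary tumor cells.

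Endothelial cells of lung are known to express Ly6a and Ly6c1 and are depleted by the CD31 gate. The 8 endothelial markers fixed for a check (Cdh5, Cldn5, Ramp2, Egfl7, Calcrl, Tmem100, Sox17 and Pecam1) summed to 0 to 154 CPM in each of the 63 samples, of which Pecam1, also expressed by leukocytes, gave 1244 of the UMIs counted. In T_CD4_Lef1 the markers summed to 67.8 CPM on average, from 0 to 397 CPM, of which Pecam1 gave 49.9 CPM, Calcrl 12.2 CPM, Cdh5 0.0456 CPM and Sox17 0.24 CPM. In T_CD4_S100a4 they summed to 125 CPM on average, the highest of the 26 labels, from 0 to 842 CPM, with 85.0 CPM of Pecam1, 22.4 CPM of Calcrl and Cdh5 and Sox17 at 0. Their part in the Ly6a and Ly6c1 levels of both labels was not tested.

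Ly6a levels spread widely over tissues in several labels. In T_CD4_S100a4 the control sums were 249, 307 and 671 CPM and the metastasis core sums were 1905, 2248, 2938, 4526 and 4596 CPM, with no overlap. Relapse-free lungs (885 ± 527 CPM, n = 5), distal normal tissue (1383 ± 532 CPM, n = 3), metastases (1533 ± 521 CPM, n = 4) and primary tumors (1329 ± 296 CPM, n = 3) lay between them. The makeup of this label differed as well. Mean Cd4 was 106 CPM in control and 247 CPM in core sums, Cd8a 164 and 70.2 CPM, and Cd8b1 207 and 40.1 CPM. Lef1 was at 364 and 36.6 CPM and Ccr7 at 222 and 43.1 CPM. Pooled over tissues, Ly6a was 2301 CPM in its 68 cells with Cd4 UMIs and 631 CPM in its 80 cells with Cd8 UMIs. It was 1387 CPM in the 754 cells with neither. How far makeup sets these Ly6a levels was not tested. In DC_cDC2 the relapse-free sums were 123, 256 and 521 CPM, all below the 6 metastasis sums of 1029.6 to 3724 CPM. In Mon_Fn1 the margin sums were 0, 0, 0, 0 and 61.3 CPM, whereas the 7 core sums ran from 0 through a median of 299.5 to 776 CPM, so the groups overlapped. In T_CD8_Gzmk Ly6a was 179.9 ± 123 CPM in Pre-MET lungs (n = 3), 371 ± 150.2 CPM in control lungs (n = 3), 1182 ± 878 CPM in cores (n = 11) and 1396 ± 396 CPM in primary tumors (n = 3), with relapse-free, distal normal, metastasis and margin means of 411, 693, 786 and 1000.6 CPM. Control lungs shared no batch with any other group, so batch and tissue cannot be told apart in the values set beside them.

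**Figure D3:**
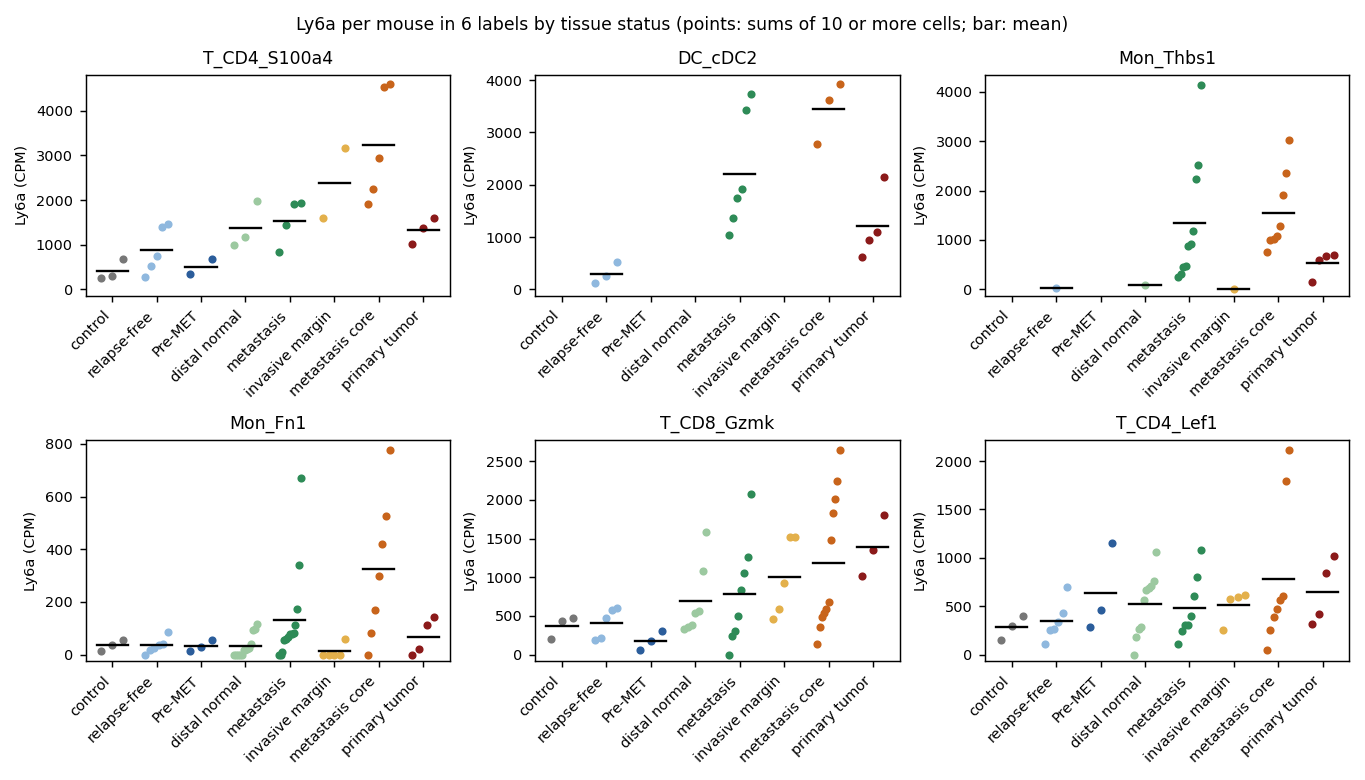
Ly6a level in CPM (y axis) in 6 labels by tissue status (x axis), with 1 point per sum of 10 or more cells and a bar at the mean. In T_CD4_S100a4 every core sum (1905 CPM or more) lies above every control sum (671 CPM or less), and in DC_cDC2 every core sum lies above every primary tumor sum.

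The design allowed 5 comparisons of tissue status, each fitted per label across all genes with edgeR's quasi-likelihood test on the summed counts and adjusted over all genes of the fit. In 38 fits, 87 of 152 combinations of gene and label passed the filter on low counts, and 1 was called at an adjusted p below 0.05. Levels that did not pass the filter, mostly of Ly6c1, are described only. A lack of overlap between groups is description throughout, since the share of all genes whose groups do not overlap was not counted.

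Primary tumors were set against metastasis cores to ask how the immune cells of both sites differ. In Mac_Cd81, tumor-associated macrophages, Ly6e was 2109, 2299, 2444 and 3050.0 CPM in the primary tumors and 680.0, 1309 and 1399.9 CPM in the cores, so every tumor lay above every core. The log2 fold change was 1.36 (SE 0.38, 95% interval 0.56 to 2.16, edgeR adjusted p = 0.034), the 1 call among 21 tests of members. Over all labels of this comparison 2.18% of tests were called, and within Mac_Cd81 8.25%. The core sums held 10 to 22 cells and the tumor sums 16 to 57. The call was lost without primary tumor mouse 10 (log2 fold change 1.29) or mouse 38 (1.18), and without core mouse 24 (1.35) or mouse 30 (1.61), and it remained without core mouse 26 (2.09), so it rests on single mice on both sides. The metastasis sums of this label, 2001 and 3038 CPM, lay above every core sum. Whether the effect in Mac_Cd81 differed from that in other labels was tested with limma, and the difference of 1.19 on the log2 scale did not pass (adjusted p = 0.373).

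Some genes of the type I interferon response were also higher in primary tumor Mac_Cd81. Of 26 listed genes 20 were tested, 5 were higher, 0 were lower and 15 did not pass, where 8.25% of all genes in this label were called, and their median log2 fold change was 2.23 against 0.31 over all genes. The genes called were Isg15, a ubiquitin-like modifier (log2 fold change 4.86, adjusted p = 0.00991), Irf7, a transcription factor of the response (3.64, adjusted p = 0.0175), and Isg20, Oasl1 and Rsad2 (adjusted p = 0.0342 each), all by edgeR. In the other labels of this comparison the list gave 0 genes higher and 1 lower, Ifi27l2a in DC_cDC2.

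**Figure D4:**
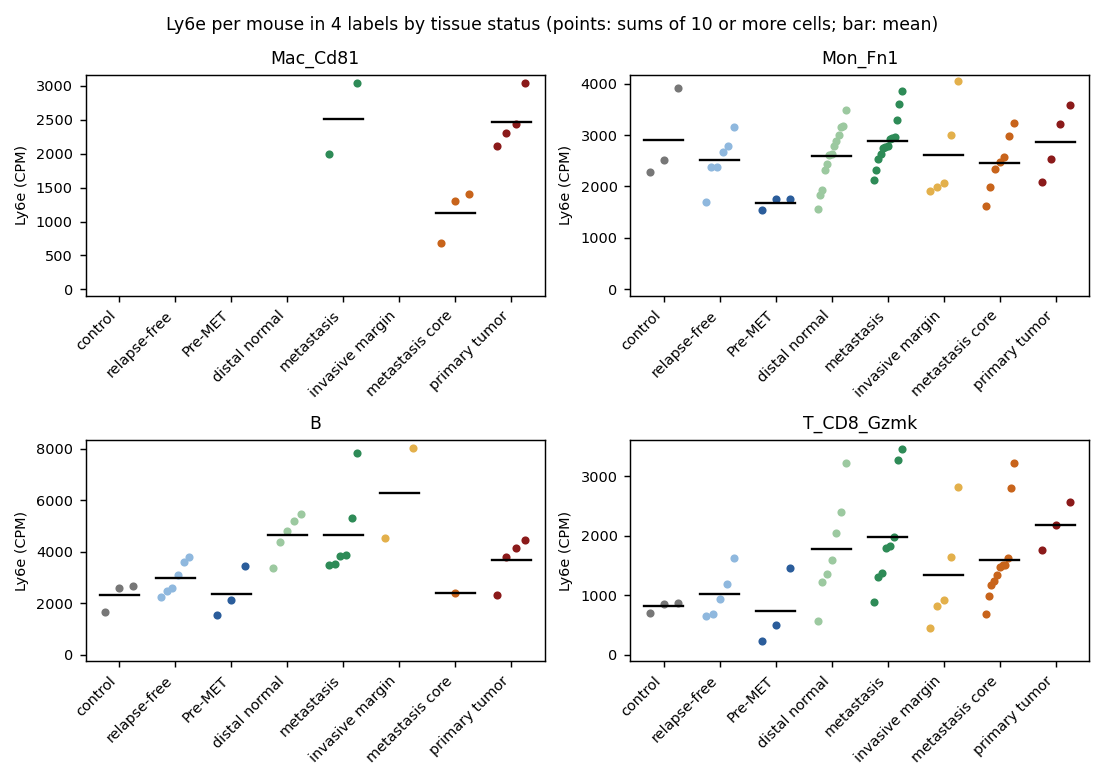
Ly6e level in CPM (y axis) in 4 labels by tissue status (x axis), with 1 point per sum of 10 or more cells and a bar at the mean. In Mac_Cd81 the 4 primary tumor sums lie above the 3 core sums, and in Mon_Fn1 the 3 Pre-MET sums lie below the 3 control sums.

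For Ly6a the estimate was above 0 in 2 of 7 labels and below 0 in the rest, 4 of them with an unadjusted p below 0.05, and none passed the adjustment. An unadjusted p below 0.05 was found in 1383 of the 9431 tests over all genes and labels of this comparison. Over all genes 1.15% of tests were called in DC_cDC2, 1.24% in Mon_Thbs1, 0.681% in T_CD4_S100a4, 0.59% in Mon_Fn1, 0.99% in T_CD4_Lef1 and 0% in T_CD8_Gzmk. In DC_cDC2 the primary tumor sums were 612, 947, 1099 and 2153 CPM and the core sums 2787, 3615 and 3915 CPM, a log2 fold change of -1.30 (SE 0.40, edgeR adjusted p = 0.090). In Mon_Thbs1 the tumor sums were 157, 599.5, 676 and 699 CPM, all below the 8 core sums of 758 to 3027 CPM with a median of 1182 CPM (-1.39, SE 0.40, edgeR adjusted p = 0.082). In T_CD4_S100a4 the tumor sums of 1013, 1374 and 1601 CPM were again below all core sums (-1.04, SE 0.47, edgeR adjusted p = 0.389). Mon_Fn1 gave -2.08 (SE 0.75, adjusted p = 0.241) with overlapping groups, and in T_CD8_Gzmk and Mac_Cd81 the estimate was above 0. For Ly6c2 in T_CD8_Gzmk the tumors had 3227, 3809.8 and 3810.2 CPM and the 11 cores 591 to 4089.8 CPM with a median of 2321 CPM (0.79, SE 0.37, adjusted p = 0.270). Only 1 primary tumor shared a batch with cores, and within that batch, SB128, the mean over labels of Ly6a was 0.74 higher (log2) in that tumor than in 2 cores and that of Ly6e 0.34 lower, the opposite directions to those of the whole comparison.

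**Figure D5:**
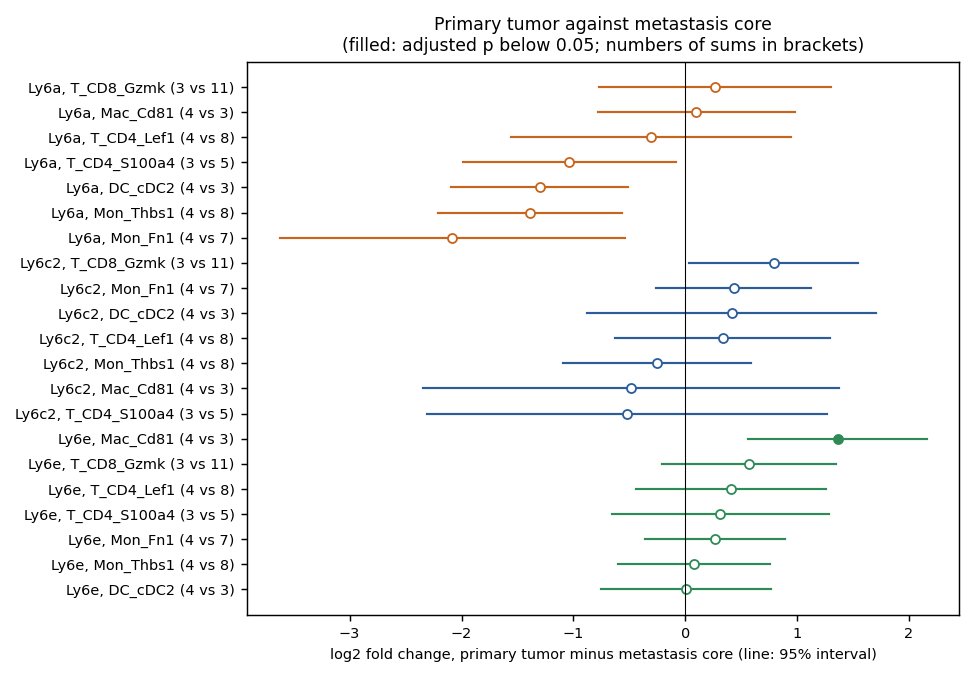
Log2 fold change of primary tumor against metastasis core (x axis) for the 21 tests of Ly6a, Ly6c2 and Ly6e by label (y axis, numbers of sums in brackets), with 95% intervals from the edgeR fit. The filled point, Ly6e in Mac_Cd81 (1.36), is the only call, and 4 of the 7 Ly6a intervals lie below 0.

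Pre-MET lungs were compared with control lungs to look for changes before metastases appear. None of 14 tests of members was called by edgeR (0.194% of all tests were, and 0.336% in Mon_Fn1), and DESeq2 called 1. An unadjusted p below 0.05 was found in 3 of these 14, against 1226 of 10305 tests over all genes. In Mon_Fn1 Ly6e was 1534, 1753 and 1757 CPM in Pre-MET and 2289, 2512 and 3921 CPM in control lungs, without overlap (log2 fold change -0.78, SE 0.22, edgeR adjusted p = 0.146), and this was the gene DESeq2 called. In Mon_MHC-II Ly6e was 1245, 1720.0 and 2222 CPM against 2493, 2849 and 3293 CPM, also without overlap (-0.79, SE 0.32, edgeR adjusted p = 0.361). With 3 sums on each side, full separation in either direction has a probability of 0.1 by chance alone. Ly6a in T_CD4_Lef1 was 282, 459 and 1159 CPM against 156, 299 and 398 CPM, which overlapped (1.10, SE 0.49, adjusted p = 0.343).

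Against relapse-free lungs, which separate resected mice without relapse from tumor-bearing mice, 0 of 21 tests were called by edgeR or DESeq2 (0.0113% of all tests were by edgeR, and 0.0427% in Mon_Fn1). Over all genes 1406 of 17716 tests had an unadjusted p below 0.05, and of the 21 tests of members 1 did. This was Ly6a in T_CD8_Gzmk, with 55.9, 182 and 301 CPM in Pre-MET and 194, 211, 479, 572 and 601 CPM in relapse-free lungs, which overlapped (-1.68, SE 0.77, adjusted p = 0.376). The estimate for Ly6e was below 0 in all 8 labels tested. These labels share the same 3 Pre-MET mice. The median log2 fold change over all genes was also below 0 in each label but Mon_Fn1 (0.016), from -0.057 in Mon_Ace to -0.34 in NK_Ncr1.

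Metastasis was compared with distal normal tissue of the same lungs, and core with margin, to place changes around the lesion. These fits held no mouse term. None of 20 tests was called in the former by edgeR or DESeq2 (0.0208% of all tests were by edgeR, and 0.202% in T_CD4_S100a4), and none of 11 in the latter (0% of all tests). No member had an unadjusted p below 0.05 in either, against 130 of 4811 and 53 of 2542 tests over all genes. Ly6c2 in Mon_Fn1 was 2644 ± 819 CPM in metastases and 2503 ± 485 CPM in distal normal tissue (n = 13 each, log2 fold change 0.03, SE 0.15, 95% interval -0.28 to 0.33). Ly6a in Mac_Gpnmb was 577 CPM in cores (n = 3) and 177 CPM in margins (n = 4). The log2 fold change of 1.57 was imprecise and far from a call (SE 0.96, edgeR adjusted p = 0.997).

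Means over labels gave 3 calls, all of Ly6e. With limma over all sums of a comparison, Ly6e was 0.51 lower (log2) in Pre-MET than in control lungs (adjusted p = 0.035, 14.2% of genes called), 0.77 lower in Pre-MET than in relapse-free lungs (adjusted p = 0.031, 1.44% called) and 0.61 higher in primary tumors than in cores (adjusted p = 0.017, 15.8% called). Tests of whether a label differed from the other labels called no member in any comparison (for Pre-MET against control, 3.86% of genes were called for Mon_Fn1 and 0.429% for NK_Ncr1). None of the 3 mean differences held when each sample was reduced to 1 mean, with exact permutation p of 0.5, 0.0952 and 0.149, of which 3 against 3 mice could not go below 0.1. The differences kept their direction, at -0.24, -0.41 and 0.38 on the log2 scale, and without 1 mouse they ran from -0.39 to -0.04, from -0.55 to -0.21 and from 0.30 to 0.45. Within batch SB99, which held 3 Pre-MET mice and 1 relapse-free mouse, Ly6e was 0.16 lower in Pre-MET lungs (log2). Among the 20 such tests the smallest p was that of Ly6a in core against margin, 1.54 higher (log2, exact permutation p = 0.0157, adjusted 0.252), with 7 of 13 cores above every margin. Within batches that difference was 1.51, 2.92, 0.08 and -0.15. Ly6a in metastasis against distal normal tissue was 1.11 higher (permutation p = 0.0252, adjusted 0.252), and 1.86, 0.97 and 0.39 within batches. The limma mean over labels for the same comparison was 0.44 (adjusted p = 0.999), and the edgeR estimates in the 4 labels where Ly6a passed the filter lay between -0.38 (B) and 0.08 (T_CD8_Gzmk), below the difference of 1.11 over sample means. Paired by mouse (replicate block), Ly6a was higher in the core in 6 of 6 mice with both samples, by 1.37 on average and from 0.11 to 2.72 (exact sign-flip permutation p = 0.03125, the smallest that 6 mice allow, adjusted 0.113 over the 8 paired tests). In metastasis against distal normal tissue it was higher in 10 of 13 mice, by 1.22 on average (exact sign-flip permutation p = 0.0232, adjusted 0.113). The sample means drew on whichever of the labels used a sample held. Mice 26 (1.89) and 32 (0.34) shared none of these labels between core and margin. Mouse 33 (2.09) shared none between metastasis and distal normal tissue. Their differences set different labels side by side, so the paired p-values do not test a change within labels.

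Over mice, the members were related to the mean of the 26 interferon genes in the 5 labels with most sums, which gave 20 relations. After adjustment over these, Ly6a in NK_Ncr1 (n = 22 mice, Pearson r = 0.566, permutation p = 0.00517, adjusted 0.0376, Spearman rho = 0.619, permutation p = 0.00263, adjusted 0.0263) and Ly6c2 in Mon_Ace (n = 23, r = 0.568, permutation p = 0.00426, adjusted 0.0376, rho = 0.607, permutation p = 0.0025, adjusted 0.0263) passed in both measures. Without the 2 mice farthest from the median of the list, r was 0.467 and 0.523. In NK_Ncr1 Ly6a rested on 107 UMIs, with a UMI in 22 of 40 sums, and against the mean log2 UMIs of the sums of each mouse r was 0.487 for the list and 0.243 for Ly6a. In Mon_Ace these were 0.115 for the list and 0.0752 for Ly6c2. The part of depth in the relations was not tested. Centred on tissue status r was 0.633 and 0.686, and centred on sequencing batch 0.600 and 0.730. Ly6c2 in T_CD8_Gzmk passed by Pearson only (r = 0.532, permutation p = 0.00564, adjusted 0.0376, rho = 0.515, permutation p = 0.00929, adjusted 0.0619) and fell to 0.117 once centred on tissue. Ly6e passed in none of the 5 labels (r of 0.139 to 0.463).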

How the data were processed

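Immune cells were sorted into plates and sequenced as 3′ UMI libraries. Per the study's methods, the authors demultiplexed reads (bcl2fastq 2.15.0.4), mapped them to mm10, excluded reads with several mapping positions, assigned the rest to exons and counted UMIs, and deposited the raw UMI counts, with genes in rows and wells in columns. Population labels are the authors' annotation from clustering these cells. Each well was sorted as 1 cell and no doublet caller was run. No well name occurred in more than 1 plate (0 shared).

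Cells with at least 500 UMIs and an immune label were kept, and 595 cells labelled erythrocyte, outlier or tumor were left out. Counts were summed per mouse, tissue status and label (at least 10 cells). edgeR 4.0.16 (TMM, filterByExpr, quasi-likelihood test, Benjamini-Hochberg adjustment over all genes of a fit, threshold 0.05) was used per label with at least 3 sums on each side, and limma 3.58.1 (voom, duplicateCorrelation) for differences between labels and means over labels. Sample means used log2(CPM + 20). DESeq2 1.42.0, other size factors, filters, cell minimums, a batch term, a mouse block and omission of single mice (in groups of 7 or fewer mice, or label sides of 5 or fewer sums) were alternatives. On counts simulated for primary tumor against core in T_CD8_Gzmk, 82% of 200 genes changed by 2 on the log2 scale were recovered among 577 genes, with 3.53% of calls false. Recovery was 79% for metastasis against distal normal tissue (Mon_Fn1, 1292 genes, 6.51% false), 67.9% of 156 changed genes for core against margin (T_CD8_Gzmk, 312 genes, 6.19% false), 63.5% for Pre-MET against relapse-free (B, 575 genes, 3.05% false) and 53.5% for Pre-MET against control (B, 706 genes, 2.73% false). Each simulation changed a larger part of the genes than was called in the data (at most 2.18% over all labels of a comparison). Many changed genes ease the adjusted threshold, so these rates do not give the recovery of a member among few changed genes.

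The members, gene lists and labels were chosen with earlier results of these data known. Named genes were the members, the 2 genes most like each by Pearson correlation over label means and over sums of its most sampled label, other Ly6 genes reaching 20 CPM in a label, and the interferon list. Metastasis and distal normal tissue, and core and margin, came from the same mice. The main edgeR fits held no mouse term. Pairing by mouse was used for a test of the sample means and as an alternative fit (replicate block). The deviations from group means correlated at a median of 0.106 (44 pairs of sums) and 0.321 (15 pairs). The replicate block changed no call (0 in both comparisons). Positions are from GENCODE vM21 (GRCm38) and promoters from RefSeq. Analyses used R 4.3.3, Python 3.11.15 and scipy 1.17.1.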

Additional observations from a re-analysis of the deposited data

Results flagged for a closer look

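In 93 groups of 4 to 10 sums, 3 held a sum farther from the others than Dixon's limit, where chance alone gives about 1 in 20. Ly6c2 in Mon_Fn1 was 3913 CPM in relapse-free mouse 35, against 927 to 1585 CPM in the other 5 relapse-free mice. Ly6c2 in T_CD8_Gzmk was 3948 CPM in the metastasis of mouse 31, against 1166 to 1906 CPM in the other 7. Ly6e in Neut_Ptgs2 was 2757 CPM in the metastasis of mouse 24, against 960.2 to 1597 CPM in the other 5. No call rested on these sums.

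Wells without a cell held UMIs of 2 members above the limit that a count of 0 allows, 7 of Ly6c2 and 12 of Ly6e among 8490 UMIs. Their CPM, 824.5 and 1413, lay below those of all immune cells together, 936 and 1952, and each empty well held 14.3 UMIs on average. At this level free RNA adds few UMIs to a cell of 500 or more, and its part in the lowest label levels was not tested.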

How the results depend on the processing

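Calls of members depended on the fit where they sat near the threshold. For primary tumor against core, 2 calls instead of 1 were made with RLE size factors (Ly6a in DC_cDC2 added) and 2 with DESeq2 (Ly6a in Mon_Thbs1 added), and 0 with at least 20 cells per sum (3 labels fitted), with cells of at least 1000 UMIs (5 labels) or with sequencing batch as a term (2 labels), where Mac_Cd81 could not be fitted. Leaving out each primary tumor mouse, or each core mouse in labels with 5 or fewer core sums (added after seeing the data), gave 0 to 1 calls, 0 without primary tumor mouse 10 or core mouse 24 or 30, and without primary tumor mouse 38 the call was Ly6a in DC_cDC2 (-1.77) instead of Ly6e. In the other comparisons mice of groups of 7 or fewer, or of sides with 5 or fewer sums, were left out, with 0 calls each time. For Pre-MET against control DESeq2 called 1, and for core against margin cells of at least 1000 UMIs gave 1, Ly6a in Mon_Fn1, which the main filter on low counts had left untested. The pairing by mouse (replicate block) left 0 calls in both paired comparisons, and of the sample means over labels it turned 3 small core against margin differences, none called, to -0.0459 (Ly6c1), 0.0888 (Ly6c2) and 0.15 (Ly6e). Of 101 alternative values for the 10 results with an unadjusted p below 0.05, 93 kept direction and side of the threshold, 4 newly passed, 4 no longer passed and 0 changed direction. The Ly6c1 difference between Cd4 and Cd8 cells was 48.1 points with at least 1 UMI of the pair (higher with Cd4 in only 10 of 14 mice), 71.0 with at least 5 (5 mice, where the exact permutation p cannot go below 0.0625), 67.4 in cells of at least 1000 UMIs and 65.5 to 73.3 without 1 mouse. Unthinned shares of cells were 81.6% for Ly6a in T_Treg, 74.0% for Ly6c2 and 79.5% for Ly6e in DC_pDC. Of 104 label levels (100 with at least 20 cells), 6 to 8 moved by more than an SD under each other way of summing. Ly6c1 passed the filter on low counts in 3 of 38 fits. The causes were not tested.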

Other observations

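Of 34 other Ly6 superfamily genes listed, 33 had a row and 8 reached a mean of 20 CPM in a label. Few passed the filter on low counts, with 3 to 12 tests per comparison over all its labels, and none of these was called. Ly6d was highest in B (7722 ± 3226 CPM, n = 30 sums), Ly6g, the usual neutrophil antigen, in Neut_Camp (555 ± 279 CPM, n = 4) and Ly6i in Mon_Ace (491 ± 431 CPM, n = 32), where Ly6c2 was 285 CPM. Ly6a2 was at 969 ± 527 CPM in Neut_Camp, where Ly6a was 18.5 CPM. Plaur, the urokinase receptor, reached 1216 ± 1103 CPM in Neut_PMN-MDSC (n = 5), while Ly6k and Lynx1 in B and Lypd6b in Neut_Ptgs2 stayed below 50 CPM.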
